A study of Mus musculus with 6 samples.

Results

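The placental prolactin genes (Prl), the pregnancy-specific glycoprotein genes (Psg) and the carcinoembryonic antigen-related cell adhesion molecule genes (Ceacam) were followed in mouse embryonic stem (ES) cells grown with or without vitamin C. Members were all genes measured by a probe set annotated with exactly 1 symbol that starts with Prl and a digit, Psg and a digit, or Ceacam. There were 46 such genes of the 19938 tested, namely 19 Prl, 12 Psg and 15 Ceacam genes. The RefSeq gene table (GRCm38.p6) holds 54 genes with such names, and the other 8 (Prl2c2, Prl2c3, Prl3b1, Prl3d1, Prl3d2, Prl8a1, Psg21 and Ceacam-ps1) were not analysed here. A further 2 probe sets with several symbols of these families were left out.

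The untreated group and the vitamin C group had 3 arrays each, described as biological triplicates in the design text. Both were Oct4-GiP ES cells on gelatin (0.1%) in N2B27 medium with LIF (1000 U/ml), the MEK inhibitor PD0325901 (1 μM) and the GSK3β inhibitor CHIR99021 (3 μM). The vitamin C group also received L-ascorbic acid 2-phosphate at 200 μg/ml for 72 hours, and the comparison asks how that changes the RNA of these cells. The labels name a single reporter line, so the values describe that line.

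In the mouse placenta, trophoblast cells secrete a large family of hormones related to pituitary prolactin, some of which act through the prolactin receptor and others on blood vessels or immune cells. The Psg proteins are secreted immunoglobulin-like glycoproteins of trophoblast, and the Ceacam proteins are their relatives, many of them on cell surfaces. Naive ES cells do not normally form trophoblast. Both the Psg and the Ceacam genes lie on chromosome 7, and the Prl genes lie on chromosome 13.

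The values are log2 signals, and the level of one probe set cannot be set against that of another. All 8 ES cell markers (Pou5f1, Nanog, Sox2, Zfp42, Klf4, Esrrb, Tfcp2l1 and Dppa3) lay in the highest quartile of mean signals. Of these, Nanog, Zfp42 and Dppa3 rose, none fell and 5 did not pass, with a summed linear signal of 10715 to 10957 in untreated and 11791 to 11917 in vitamin C arrays. Of 7 measured trophoblast markers, Krt7 fell, none rose and 6 did not pass, and Tpbpa, a spongiotrophoblast marker, lay in the lowest quartile. Their summed linear signal was 366 to 405 in untreated and 333 to 337 in vitamin C arrays. Such sums are weighted to the brightest probe sets. Of all genes tested, 13.2% passed. In such bulk samples, fewer cells of a type and less RNA per cell cannot be told apart.

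Of the 46 members, 3 passed the limma test at an adjusted p under 0.05, and all 3 were Ceacam genes. Ceacam10 and Ceacam20 were higher with vitamin C and Ceacam1 was lower. Over all genes tested, 13.2% passed, 5.75% higher and 7.40% lower. Most members were dim: 38 of the 46 lay in the lowest quartile of mean signals, where 3.37% of genes passed, and none of these 38 did. For 37 of them the signal was below that array's own lower quartile (4.55 to 4.66) on all 6 arrays. The 3 called genes were among the 8 members above the lowest quartile. These 8 lay in the quartiles just above it, where 8.43% and then 19.0% of genes passed; in the highest quartile, which holds no member, 21.9% did. The median log2 difference was 0.05 over the 46 members and 0.01 over all genes. Detection calls were not used here, and whether dim members exceeded the background signal was not tested.

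**Figure D1:**
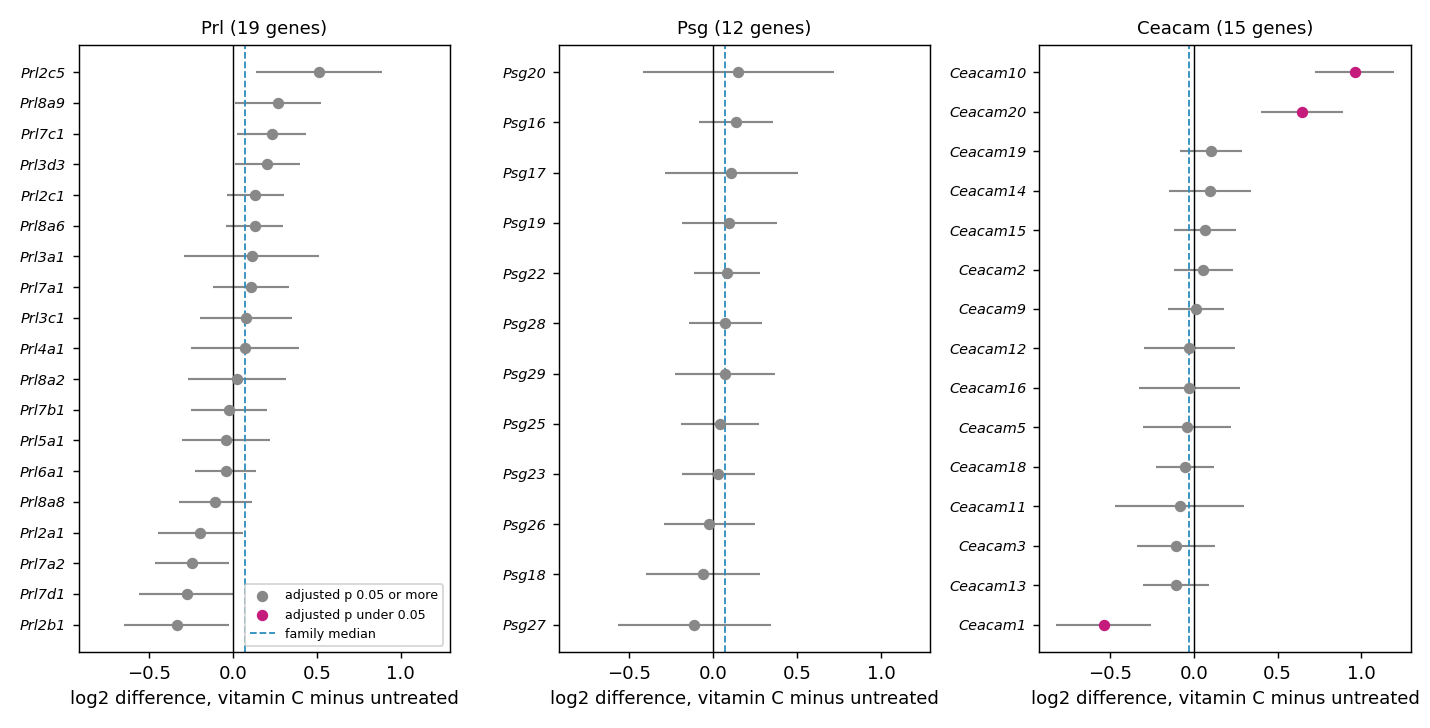
Log2 difference (vitamin C minus untreated, horizontal axis) of each of the 46 genes in 3 panels by family; points are differences of the means of 3 arrays per group, bars are 95% confidence intervals from limma, and the dashed line is the family median. The 3 genes past the test, Ceacam10, Ceacam20 and Ceacam1, are in the Ceacam panel, and the family medians are 0.07, 0.07 and -0.03.

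Ceacam10, which encodes a secreted protein of the family, gave 5.35, 5.48 and 5.19 on the untreated arrays and 6.17, 6.44 and 6.29 on the vitamin C arrays. Each vitamin C array was above each untreated array. The gene rose by 0.96 ± 0.10 on the log2 scale (SE, adjusted p = 0.00168), which is 1.94-fold. Ceacam10 passed under all 16 alternative settings, with differences of 0.89 to 1.03.

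Ceacam20, which encodes a membrane protein of intestinal microvilli with a signalling tail, gave 6.31, 5.91 and 6.06 untreated and 6.74, 6.80 and 6.69 with vitamin C. The groups did not overlap, and the untreated arrays were spread more widely than the vitamin C arrays. The difference was 0.65 ± 0.10 (SE, adjusted p = 0.00875), a 1.57-fold rise. Its call was lost in a test without moderation (adjusted p = 0.0620; 0.000418 to 0.0620 over its 16 alternatives).

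Ceacam1, an adhesion receptor of epithelia and leukocytes with inhibitory signalling motifs and the receptor of mouse hepatitis virus, gave 6.83, 6.75 and 6.93 untreated and 6.21, 6.12 and 6.57 with vitamin C. The groups did not overlap, and vitamin C replicate 3 lay nearest to the untreated arrays. The difference was -0.54 ± 0.12 (SE, adjusted p = 0.0279), a 1.45-fold fall. The call was lost without untreated replicate 1 (adjusted p = 0.0744), 2 (0.0563) or 3 (0.0870), without vitamin C replicate 1 (0.0935) or 2 (0.0747), without moderation (0.121) and with all probe sets tested (0.0779). It held without vitamin C replicate 3 (0.0101). Over the 16 alternatives the difference ran from -0.67 to -0.45.

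The promoters of Ceacam10 and Ceacam1 are shown because these genes changed in opposite directions while their promoter letters are close to the same. Each line holds the 250 bases before the annotated start (RefSeq, GRCm38.p6), and capitals mark bases identical in both. Ceacam10 is from chr7:24776917-24777166 (plus strand, the first listed of its starts) and Ceacam1 from chr7:25477626-25477875 (minus strand).
Ceacam10: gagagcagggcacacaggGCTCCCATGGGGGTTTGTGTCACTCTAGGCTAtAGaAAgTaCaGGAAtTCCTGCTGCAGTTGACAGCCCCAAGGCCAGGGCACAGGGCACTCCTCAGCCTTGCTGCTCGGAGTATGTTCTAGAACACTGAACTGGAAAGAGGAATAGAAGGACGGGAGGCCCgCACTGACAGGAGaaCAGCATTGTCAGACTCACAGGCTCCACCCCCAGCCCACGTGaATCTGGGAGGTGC
Ceacam1: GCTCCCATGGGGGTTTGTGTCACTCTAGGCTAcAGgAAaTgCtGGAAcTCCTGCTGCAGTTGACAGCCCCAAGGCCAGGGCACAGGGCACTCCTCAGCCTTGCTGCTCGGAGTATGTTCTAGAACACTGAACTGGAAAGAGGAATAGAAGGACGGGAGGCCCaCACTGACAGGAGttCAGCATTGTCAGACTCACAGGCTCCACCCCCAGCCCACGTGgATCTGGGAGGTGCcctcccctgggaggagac
In this alignment 222 of 232 bases were identical (95.7%), with 0 gaps. Both hold CACGTG, a sequence known as an E-box, which 7.24% of all promoter windows hold and no other member's does. The genes are not adjacent: 23 tested genes lie between them, of which 1 rose and 2 fell. Of the 10 tested genes around Ceacam1, 5 on each side, none passed the test. Of the 10 around Ceacam10, 1 rose and 1 fell. Over all genes tested 13.2% passed, and counts this small are not read as a local effect. Members of this branch have related sequences, and whether their probes cross-hybridise was not tested.

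Ceacam2, the neighbour and close relative of Ceacam1, gave 4.16, 4.28 and 4.33 untreated and 4.24, 4.30 and 4.40 with vitamin C. The groups overlapped, and the difference was 0.06 ± 0.07 (SE, adjusted p = 0.671). Its promoter aligned to that of Ceacam1 over 119 bases at 87.4% identity.

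The promoter of the remaining called gene, Ceacam20, is shown for contrast (chr7:19965162-19965411, plus strand), with CG dinucleotides in capitals.
Ceacam20: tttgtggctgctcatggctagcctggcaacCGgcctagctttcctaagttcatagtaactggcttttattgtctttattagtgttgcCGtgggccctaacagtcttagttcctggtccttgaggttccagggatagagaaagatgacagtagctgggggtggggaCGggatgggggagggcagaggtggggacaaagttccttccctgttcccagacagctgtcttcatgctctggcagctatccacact
It holds 3 CG dinucleotides in these 250 bases and none of the motifs searched. Of the 10 tested genes around Ceacam20, 5 on each side, 1 rose and 1 fell, where 13.2% of all genes passed.

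**Figure D2:**
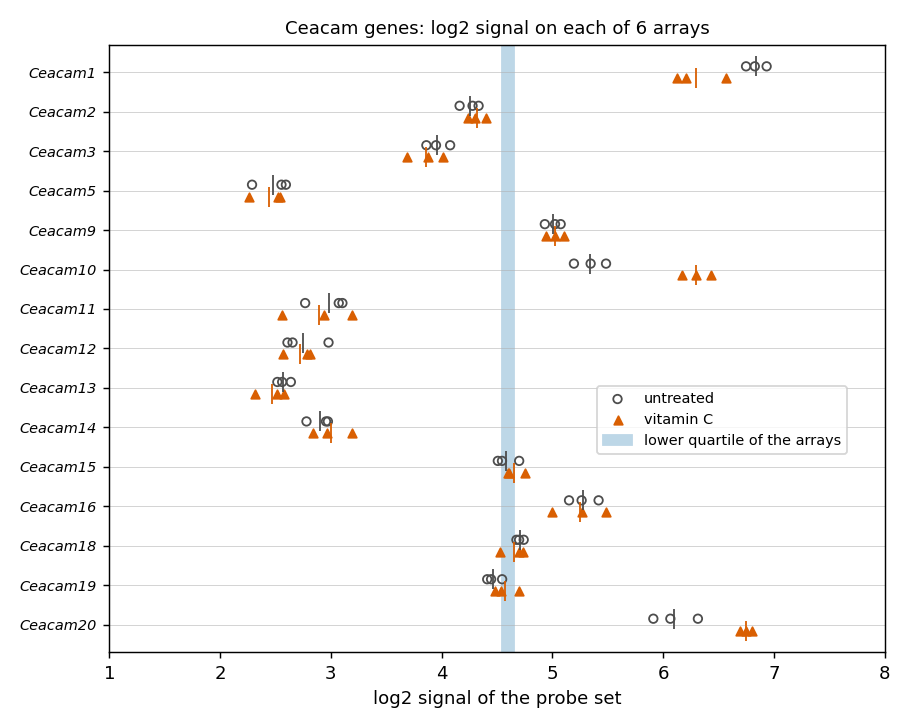
Log2 signal (horizontal axis) of the 15 Ceacam genes on each array; circles are the 3 untreated and triangles the 3 vitamin C arrays, short vertical lines are group means, and the shaded band is the range of the arrays' lower quartiles (4.55 to 4.66). Ceacam10, Ceacam20 and Ceacam1 show separate groups, and in the other 12 genes the groups overlap. Over all genes tested the groups were separate for 35.0%, so separate groups alone do not set these 3 genes apart.

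The other 12 Ceacam genes did not pass, with adjusted p-values from 0.440 to 0.921 and differences from -0.11 to 0.10. The 95% intervals of all 12 lay within a 1.5-fold change in either direction. Of these 12, 8 lay in the lowest quartile, 7 of them below the lower quartile of all 6 arrays, where a fold can understate a change. Among them are 6 genes known from trophoblast, Ceacam9 and Ceacam11 to Ceacam15. Ceacam9 stayed at 4.93 to 5.07 untreated and 4.94 to 5.11 with vitamin C, a difference of 0.01 ± 0.07 (SE, adjusted p = 0.921). The groups overlapped. Ceacam13 differed by -0.11 ± 0.08 (SE, adjusted p = 0.458) and Ceacam14 by 0.10 ± 0.10 (SE, adjusted p = 0.599). All 6 trophoblast-type members had intervals that included 0.

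Of the remaining Ceacam genes, Ceacam16 encodes a protein of the tectorial membrane in the inner ear. It gave 5.42, 5.26 and 5.15 untreated and 5.27, 4.999 and 5.48 with vitamin C. The untreated values lay inside the range of the vitamin C values, and the difference was -0.03 ± 0.13 (SE, adjusted p = 0.915). Ceacam18 differed by -0.05 and Ceacam19 by 0.10. Ceacam3 and Ceacam5, which the RefSeq table also lists under the older names Psg24 and Psg30, differed by -0.10 and -0.04. The median over all 15 Ceacam genes was -0.03, near 0, and it changed sign to 0.02 without untreated replicate 1 and to 0.01, 0.05 and 0.01 without vitamin C replicate 1, 2 and 3.

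Some markers of other cells also passed the test, as did 13.2% of all genes. Among 8 fibroblast markers, 6 rose, among them Dcn and Acta2, none fell and 2 did not pass. Their summed linear signal was 415 to 451 in untreated and 681 to 711 in vitamin C arrays, and Lum and Postn lay in the lowest quartile. Of 8 primitive endoderm markers Gata6 and Dab2 rose and 6 did not pass (404 to 432 untreated, 479 to 505 with vitamin C). Of 6 epithelial and gut markers Epcam fell and 5 did not pass (1843 to 1868 untreated, 1886 to 2018 with vitamin C). This sum mostly follows its brightest probe set, that of Cdh1 (mean log2 signal 10.42 untreated and 10.62 with vitamin C), which did not pass. None of 5 measured leukocyte markers passed (184 to 202 untreated, 190 to 215 with vitamin C), and Ptprc, Lyz2 and Cd14 lay in the lowest quartile. Whether such cells were present in the cultures was not tested, nor was any part of them in the differences of the Ceacam genes.

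None of the 19 Prl genes passed the limma test after adjustment, whose smallest adjusted p was 0.0785. At an unadjusted p under 0.05 there were 6, of which 4 were higher and 2 lower, where 29.0% of all genes and 13.4% of genes in the lowest quartile reached that level. The groups did not overlap for 5 Prl genes, against 35.0% of all genes and 14.4% in the lowest quartile. All 19 lay in the lowest quartile and below the lower quartile of every array. Differences ran from -0.33 to 0.51, and the 95% intervals of all 19 lay within a 2-fold change. The family median was 0.07, and with 1 array left out it ran from -0.024 (without untreated replicate 2) to 0.12 (without untreated replicate 1). The log2 scale of such dim probe sets compresses differences in general, so a fold here can understate a change.

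The proliferin gene Prl2c5, of a group that promotes blood vessel growth in the placenta, gave 2.64, 2.53 and 2.02 untreated and 2.97, 2.76 and 3.00 with vitamin C. The groups did not overlap, and untreated replicate 3 was the lowest of the 6 arrays. The difference was 0.51 ± 0.16 (SE, adjusted p = 0.0785), with a 95% interval from 0.14 to 0.89. Without untreated replicate 3 it was 0.33 (adjusted p = 0.104). With a trended, robust model of the spread the adjusted p was 0.0361 (0.0361 to 0.223 over its 15 alternatives).

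The proliferin-related gene Prl7d1, whose product inhibits vessel growth, gave 2.61, 3.06 and 2.88 untreated and 2.69, 2.49 and 2.54 with vitamin C. Its groups overlapped because untreated replicate 1 lay below vitamin C replicate 1. The difference was -0.28 ± 0.12 (SE, adjusted p = 0.181). The promoters of Prl2c5 and Prl7d1 are shown because no other pair of Prl promoters aligned with a higher score. Prl2c5 is from chr13:13182466-13182715 (plus strand) and Prl7d1 from chr13:27716738-27716987 (minus strand, first listed start). Capitals mark bases identical in both.
Prl2c5: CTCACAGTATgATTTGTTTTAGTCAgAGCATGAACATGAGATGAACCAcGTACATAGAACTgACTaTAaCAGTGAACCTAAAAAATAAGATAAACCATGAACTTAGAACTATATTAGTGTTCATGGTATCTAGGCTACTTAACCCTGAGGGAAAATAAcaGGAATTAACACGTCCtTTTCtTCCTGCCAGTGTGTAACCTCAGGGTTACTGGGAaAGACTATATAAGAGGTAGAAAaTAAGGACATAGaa
Prl7d1: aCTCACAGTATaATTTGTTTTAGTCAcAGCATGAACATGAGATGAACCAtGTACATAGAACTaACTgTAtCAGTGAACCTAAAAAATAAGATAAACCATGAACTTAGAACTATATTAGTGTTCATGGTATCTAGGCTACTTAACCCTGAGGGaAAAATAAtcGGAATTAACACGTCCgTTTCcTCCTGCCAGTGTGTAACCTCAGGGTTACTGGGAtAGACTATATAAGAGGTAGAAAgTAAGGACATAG
Of 248 aligned bases, 236 were identical (95.2%), with 1 gapped base. The measured differences of these dim genes had opposite signs, and neither passed the test.

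Of the placental lactogens, which act on the prolactin receptor, 1 gene of the Prl3d branch was measured. Prl3d3 gave 2.41, 2.50 and 2.51 untreated and 2.82, 2.66 and 2.55 with vitamin C. The groups did not overlap, but the gap between them was small, and the difference of 0.21 ± 0.08 (SE, adjusted p = 0.150) did not pass. The related genes Prl3a1 and Prl3c1 differed by 0.11 and 0.08.

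Among the other prolactin-like genes, 3 had groups that did not overlap. Prl7c1 gave 2.99, 2.88 and 2.78 untreated and 3.12, 3.23 and 3.00 with vitamin C, a difference of 0.23 ± 0.09 (SE, adjusted p = 0.130). Prl7a2 gave 2.77, 2.93 and 2.60 untreated and 2.57, 2.57 and 2.44 with vitamin C, a difference of -0.24 ± 0.10 (SE, adjusted p = 0.142). For both, the nearest values of the groups lay close together. Prl2b1 gave 2.54, 2.59 and 3.06 untreated and 2.45, 2.33 and 2.41 with vitamin C, a difference of -0.33 ± 0.13 (SE, adjusted p = 0.150), and untreated replicate 3 stood highest. Without that array the difference of Prl2b1 was -0.17. Prl8a9 differed by 0.27 ± 0.11 (SE, adjusted p = 0.158), with overlapping groups.

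The Prl genes with the highest mean signals showed no called difference either. Prl4a1, whose product binds uterine natural killer cells, gave 4.19, 4.12 and 4.52 untreated and 4.11, 4.43 and 4.50 with vitamin C. The ranges of the groups were nearly the same, and the difference was 0.07 ± 0.14 (SE, adjusted p = 0.782). Prl5a1 differed by -0.04 ± 0.11 (SE), Prl2a1 by -0.19 ± 0.11 (SE) and Prl2c1 by 0.13 ± 0.07 (SE). Prl8a2, a prolactin-like gene of the decidua, differed by 0.02 ± 0.12 (SE, adjusted p = 0.920). The other 5 Prl genes (Prl6a1, Prl7a1, Prl7b1, Prl8a6 and Prl8a8) differed by -0.10 to 0.13, with adjusted p-values from 0.289 to 0.900. Pituitary prolactin itself, Prl, which is no member, differed by -0.08 ± 0.11 (SE, adjusted p = 0.695).

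**Figure D3:**
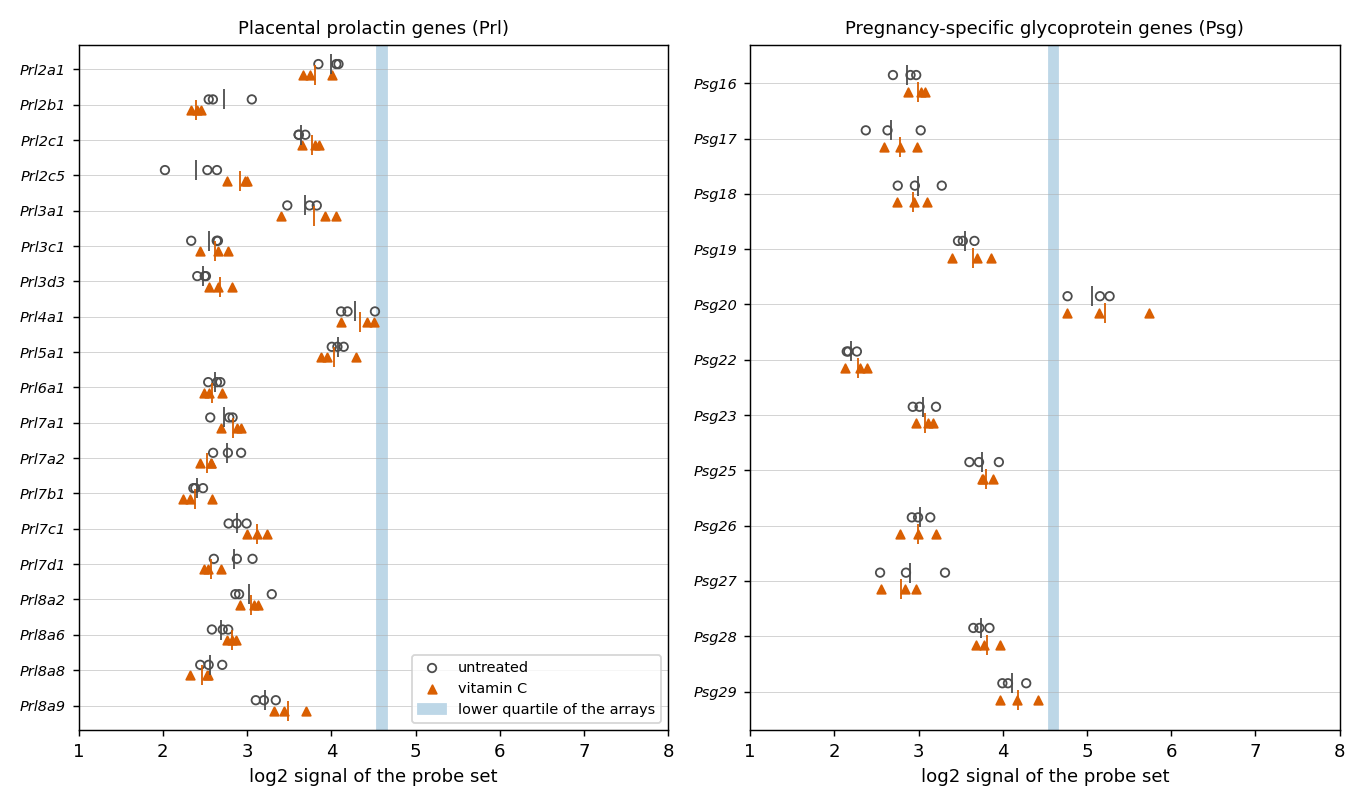
Log2 signal (horizontal axis) of the 19 Prl genes (left) and the 12 Psg genes (right) on each array; circles are the 3 untreated and triangles the 3 vitamin C arrays, short vertical lines are group means, and the shaded band is the range of the arrays' lower quartiles (4.55 to 4.66). All Prl genes and all Psg genes other than Psg20 lie left of the band.

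None of the 12 Psg genes passed the limma test, and none reached an unadjusted p under 0.05 (smallest 0.189). In all 12 the groups overlapped. Among genes of the lowest quartile, which holds 11 of them, these shares were 3.37%, 13.4% and, for groups that did not overlap, 14.4%. Over all genes tested they were 13.2%, 29.0% and 35.0%. Counts of 0 in 12 genes are near the low shares of the lowest quartile. Differences ran from -0.11 to 0.15, with 9 above 0 and 3 below, and the median was 0.07. It was 0.016 without untreated replicate 3 and 0.019 under cyclic loess normalization. The sign of 10 of the 12 differences changed when some 1 array was left out. On all 6 arrays, 11 of the 12 had signals under the array's lower quartile, and the 95% intervals of 11 lay within a 1.5-fold change.

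Psg20, the member outside that interval and the only Psg gene above the lowest quartile of mean signals, gave 5.27, 5.15 and 4.77 untreated and 5.74, 5.14 and 4.76 with vitamin C. The spread within each group was larger than the difference of 0.15 ± 0.24 (SE, adjusted p = 0.737). Its 95% interval ran from -0.42 to 0.72. Its second probe set, lower at 2.96 to 3.44 untreated and 3.07 to 3.56 with vitamin C, differed by 0.06.

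Psg16, a form expressed in brain as well as placenta, differed by 0.14 ± 0.09 (SE, adjusted p = 0.387). Psg17, whose protein binds the tetraspanin CD9, differed by 0.11 ± 0.17 (SE), and Psg19 by 0.10 ± 0.12 (SE). The largest difference below 0 was that of Psg27, at -0.11 ± 0.20 (SE, adjusted p = 0.752), whose untreated values of 3.31, 2.54 and 2.85 enclosed the vitamin C values of 2.97, 2.84 and 2.56. Psg29 and Psg25 gave 0.07 and 0.04, and Psg26 gave -0.02. Psg22, a Psg gene of trophoblast giant cells, gave 2.15, 2.27 and 2.17 untreated and 2.13, 2.39 and 2.31 with vitamin C. It differed by 0.08 ± 0.08 (SE), and Psg23 differed by 0.03 ± 0.09 (SE).

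The promoters of Psg18 and Psg28 are shown because no pair of member promoters aligned with a higher score. Psg18 (chr7:18355008-18355257, minus strand, first listed start) and Psg28 (chr7:18432056-18432305, minus strand) were identical at 241 of 247 aligned bases (97.6%), with 1 gapped base, and capitals mark the identical bases.
Psg18: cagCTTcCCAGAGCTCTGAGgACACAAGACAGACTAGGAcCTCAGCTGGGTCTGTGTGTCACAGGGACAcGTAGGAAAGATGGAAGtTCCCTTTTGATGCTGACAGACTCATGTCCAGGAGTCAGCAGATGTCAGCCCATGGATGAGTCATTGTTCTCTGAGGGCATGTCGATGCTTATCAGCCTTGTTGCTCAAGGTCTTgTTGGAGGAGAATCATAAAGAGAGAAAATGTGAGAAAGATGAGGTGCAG
Psg28: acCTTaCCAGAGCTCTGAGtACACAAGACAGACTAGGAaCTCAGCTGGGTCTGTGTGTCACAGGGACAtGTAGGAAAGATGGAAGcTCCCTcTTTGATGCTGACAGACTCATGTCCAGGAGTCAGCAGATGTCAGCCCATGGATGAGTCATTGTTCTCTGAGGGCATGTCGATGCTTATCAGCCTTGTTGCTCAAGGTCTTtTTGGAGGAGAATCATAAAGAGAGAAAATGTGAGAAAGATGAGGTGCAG
Psg18 gave 2.75, 3.28 and 2.96 untreated and 2.74, 2.95 and 3.11 with vitamin C, and Psg28 gave 3.72, 3.65 and 3.84 untreated and 3.68, 3.77 and 3.97 with vitamin C. Neither gene's groups were separate, and the differences were -0.06 ± 0.15 and 0.07 ± 0.09 (SE each). The promoter bases do not show whether probes are shared. Whether probes of related Psg genes cross-hybridise was not tested, so their separate values are uncertain.

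All members with a promoter window had few CG dinucleotides in it, the sites at which DNA methylation is placed. RefSeq promoter windows of 300 bases (250 before to 50 after the start) were found for 38 members, and each held 5 or fewer CG. Their median was 2, against 7 over 27025 genes and 15 over the 15614 tested genes with a window. Of all windows, 43.6% held 5 or fewer, as did 28.1% of those of tested genes. Other dim genes were not compared. The called genes did not stand apart here, with 4 for Ceacam10, 3 for Ceacam20 and 3 for Ceacam1.

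**Figure D4:**
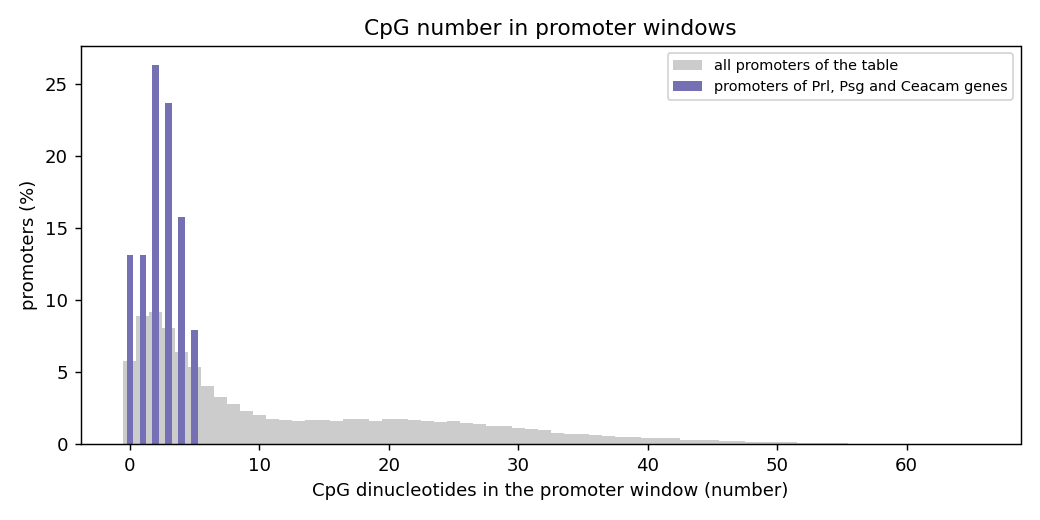
Share of promoters (%, vertical axis) by the number of CG dinucleotides in the 300-base window (horizontal axis); wide grey bars are all 27025 genes of the promoter table and narrow bars the 38 members with a window. All member bars lie at 5 or below, where 43.6% of all promoters lie.

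Motifs were counted on both strands of the same windows. TGACTCA, the binding sequence of AP-1, was in 6 of 38 member windows (Prl3d3, Prl3a1, Prl8a9, Prl7a1, Psg18 and Psg28) and in 5.17% of all windows. ACGTG, the core of hypoxia response elements, which is also part of CACGTG, was in 12 of 38 and in 19.7% of all. TATAAA was in 7 of 38 and in 14.2% of all. Since related promoters share letters, these counts are not independent of each other. They describe letters only.

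Most genes that regulate or accompany these families in placenta did not pass the test, and those that passed moved in both directions. Most genes of the array did not pass either: 13.2% of all genes did, and 19.0% and 21.9% in mean-signal quartiles 3 and 4. The lists were not tested as sets. In the list of spongiotrophoblast and glycogen trophoblast genes, 8 were measured, of which 1 rose, 1 fell and 6 missed the threshold (median -0.08). Slco2a1, a prostaglandin transporter gene, rose by 0.82 ± 0.14 (SE, adjusted p = 0.00954; 0.0741 without moderation), and the imprinted gene Phlda2, which restrains the spongiotrophoblast, fell by 1.55 on the log2 scale. Among 15 trophoblast giant cell genes 1 rose, 1 fell and 13 did not pass (median 0.10). The homeobox gene Rhox9 rose by 0.63 ± 0.11 (SE, adjusted p = 0.0106; 0.0689 without moderation), and Plac8 fell by 0.38 ± 0.07 (SE, adjusted p = 0.0158; 0.0116 to 0.0576 over its 15 alternatives). Hand1, the main transcription factor of giant cells, differed by 0.09 ± 0.11 (SE, adjusted p = 0.623). Of 16 syncytiotrophoblast and labyrinth genes 1 fell and 15 did not pass (median 0.06). The gene that fell was the lactate transporter gene Slc16a3, from 8.29 ± 0.19 to 5.85 ± 0.24 (SD, n = 3 each).

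In the list of trophoblast stem cell and trophectoderm regulators, 21 were measured, of which 1 rose, 4 fell and 16 did not pass (median -0.05). Over all genes 13.2% passed. This list also holds keratin genes, which are not regulators, and Sox2 and Esrrb, used above as ES cell markers. The keratin genes Krt8, Krt7 and Krt18 fell by 0.58, 0.36 and 0.35 on the log2 scale, of which the calls of Krt7 and Krt18 were lost under 6 and 7 of 16 alternatives. The transcription factor gene Gata2, an activator of placental lactogen promoters, fell by 0.47 ± 0.11 (SE, adjusted p = 0.0320; 0.00732 to 0.123 over its 16 alternatives). Its relative Gata3 rose by 0.35 ± 0.09 (SE, adjusted p = 0.0437; 0.0244 to 0.123 over its 16 alternatives), a call lost under 10 of them. Cdx2, which specifies trophectoderm, differed by 0.02 ± 0.10 (SE, adjusted p = 0.900), Eomes by -0.32 ± 0.11 (SE, adjusted p = 0.104) and Elf5 by 0.04 ± 0.12 (SE, adjusted p = 0.873).

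**Figure D5:**
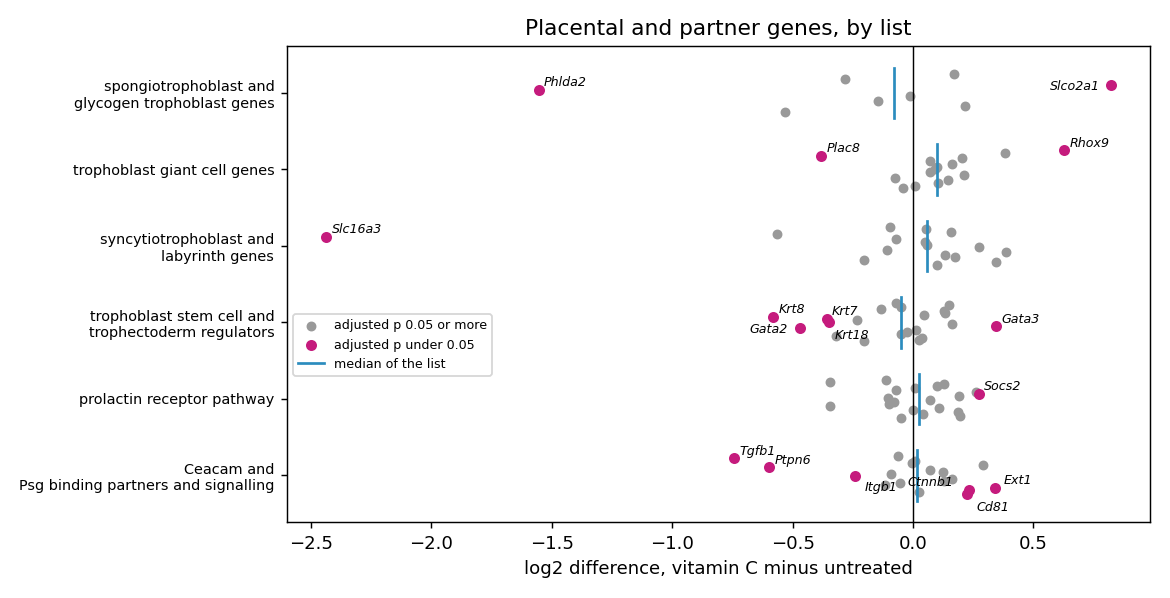
Log2 difference (vitamin C minus untreated, horizontal axis) of the measured genes of 6 lists, 1 row per list; each point is 1 gene, coloured where it passed the test, and the vertical tick is the list's median. The list medians lie between -0.08 and 0.10, and the labelled genes are those that passed.

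Of 20 measured genes of the prolactin receptor pathway 1 rose and 19 did not pass (median 0.02), where 13.2% of all genes passed. The receptor gene Prlr was not analysed here. The gene that rose was Socs2, a feedback inhibitor induced by STAT5, by 0.27 ± 0.07 (SE, adjusted p = 0.0413; 0.00542 to 0.120 over its 16 alternatives). Jak2, the kinase bound to the receptor, differed by -0.10, Stat5a by 0.13 and Stat5b by -0.34 ± 0.10 (SE, adjusted p = 0.0692).

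Of 18 measured partners of the Ceacam and Psg proteins 3 rose, 3 fell and 12 did not pass (median 0.02). Among all genes 13.2% passed, with 19.0% in mean-signal quartile 3 and 21.9% in quartile 4. This list was chosen with earlier results of these data known and was not tested as a set. Ptpn6, which encodes the phosphatase SHP-1 that docks on the tail of Ceacam1, gave 7.39, 7.33 and 7.50 untreated and 6.90, 6.72 and 6.81 with vitamin C. It fell with the groups apart, by 0.60 ± 0.08 (SE, adjusted p = 0.00352), in the same direction as Ceacam1. A link between these genes was not tested. Tgfb1, whose latent form Psg proteins can activate, fell by 0.74 ± 0.07 (SE, adjusted p = 0.000998). The integrin gene Itgb1 fell by 0.24 and the heparan sulphate synthesis gene Ext1 rose by 0.34, calls that were lost under 9 and 6 of 16 alternatives. Cd9, the Psg17 receptor, differed by 0.03 ± 0.06 (SE, adjusted p = 0.814), and its 95% interval ran from -0.11 to 0.16.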

How the data were processed

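RNA of 3 untreated and 3 vitamin C cultures was hybridised to 6 one-colour Affymetrix arrays. The authors deposited log2 values (the scale is inferred from their range), and RMA is named in the submitters' processing notes, with its version not given in the sources used here. RMA in general quantile-normalizes arrays, which removes any shift shared by all genes. Of 35557 probe sets, 21789 carried 1 gene symbol, 1621 several and 12147 none in the platform annotation, and 21698 of the first matched the RefSeq gene table. Where a gene had several such probe sets, the brightest on average was kept, giving 19938 genes.

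Groups were compared with limma (3.58.1, R 4.3.3; lmFit and eBayes). P-values were adjusted by Benjamini-Hochberg over all 19938 genes, and calls were made where the adjusted value was under 0.05. Differences are vitamin C minus untreated, with moderated standard errors (SE) and 95% intervals. The number of arrays limits the precision. The p-values set each difference against the spread between these cultures, which limma moderates with the spread of all genes. The fit was tested on simulated data.

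Promoters came from RefSeq (GRCm38.p6) and were aligned locally with Biopython 1.88 (match 2, mismatch -3, gap open -5, gap extension -2). The members and gene lists were chosen with earlier results of these data known. Named were called members, per family the 5 with the highest means and the 3 largest rises and falls, members whose groups did not overlap, up to 4 called genes per list, and receptors. Other genes named with values were chosen after their values were seen. Tried as alternatives were 2 normalizations, 2 spread models, a filter on dim genes, 2 choices of probe set, array weights, another threshold, a replicate block and leaving out each array.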

Additional observations from a re-analysis of the deposited data

How the results depend on the processing

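Ceacam10 was called under all 16 alternatives, and no Psg gene was called under any. A trended and robust spread model and a threshold of 0.10 each called 1 Prl gene, Prl2c5. Without moderation 1 Ceacam gene was called, and with 1 array left out 2 to 3. The Prl median was -0.024 without untreated replicate 2 and ran from -0.024 to 0.12 with 1 array left out. Over all genes, against 2623 called, there were 4151 under the trended and robust model, 4096 at 0.10, 1545 without moderation, 1470 with all probe sets tested, and 1483 to 1721 with 1 array left out. With 1 array left out, Psg20 ran from -0.11 (without vitamin C replicate 1) to 0.38, Psg27 from -0.29 to 0.092 (without untreated replicate 1), and Ceacam11 from -0.23 to 0.083 (without vitamin C replicate 1), each changing sign. In all, 24 of 46 members changed sign when some 1 array was left out (7 Prl, 10 Psg and 7 Ceacam genes), none of them a called gene. Fits with 1 array left out hold fewer samples, and the fit of all probe sets holds more tests. The causes of these changes were not tested. The filter on dim genes left 8 of 46 members and no Prl gene, so it gave no Prl value. Called genes ran from 1 to 7 in the trophoblast stem cell list, 0 to 4 in the prolactin receptor pathway and 2 to 7 among the Ceacam and Psg partners.

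The replicate numbers showed no visible pairing of the arrays: deviations of same-numbered arrays correlated at 0.05, 0.01 and -0.02. Differently numbered arrays gave -0.07 to 0.05. With 3 arrays per group this cannot show whether the cultures were paired. With the replicate block 1723 genes were called, and the 3 Ceacam calls remained.

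Signals near the low end of the arrays limit what can be said of the Prl and Psg genes and of the dim Ceacam genes. A missing call there does not show that a gene was unchanged.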
